A study of Mus musculus with 11 samples.

Results

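Genes of DNA replication and nucleotide synthesis were followed in mouse neuroblastomas after a single treatment with CBL0137, panobinostat or both. The set held 41 genes, taken by symbol from a list arranged by function, out of 24411 genes in the deposited table. It comprised 11 genes of origin licensing, 6 of helicase activation, 6 of the sliding clamp and its loader, 9 of the polymerases and primase, 4 of single-strand binding and Okazaki fragment processing, and 5 of nucleotide supply. All 41 passed the filter on low values, at least 1 TPM in at least 2 libraries, which kept 15497 genes. TPM is a transcript's share of its library after correction for length, on a scale with the same total in every library, so levels of different genes can be set side by side, but read depth is unknown.

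All mice were homozygous for Th-MYCN, which expresses MYCN from the tyrosine hydroxylase promoter, so the vehicle group carried the transgene as well. Each mouse received 1 dose once its spontaneous tumour had reached about 5 mm by touch, and the tumour was removed and frozen 16 h later. The groups were vehicle given into the peritoneum (n = 3), CBL0137 at 40 mg/kg into a vein (n = 3), panobinostat at 5 mg/kg into the peritoneum (n = 2, replicates 1 and 3) and both drugs together (n = 3). Panobinostat replicate 2 was not analysed here. No group used here received vehicle by vein, and every comparison against vehicle shares the same 3 vehicle tumours. CBL0137 is a DNA-binding curaxin known to trap the histone chaperone FACT on chromatin, and panobinostat is a broad histone deacetylase inhibitor.

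RNA came from whole tumours, stroma included, and fewer cells of a type and less RNA per cell cannot be told apart in such samples. Between 12856 and 14747 genes reached 1 TPM per library. The sympathoadrenal marker Ddc stood at 278 ± 29.9 TPM in vehicle tumours (SD, n = 3). Combination replicate 2 held adrenal cortex transcripts, with Star at 1362 TPM and Hsd3b1 at 1616 TPM against at most 11.7 and 5.72 TPM elsewhere. Panobinostat replicate 3 held skeletal muscle transcripts, with Acta1 at 3110 TPM, and combination replicate 1 and CBL0137 replicate 2 held less, at 213 and 144 TPM, against at most 19.8 TPM elsewhere. The kidney transcript Kap reached 302 TPM in vehicle replicate 2, and the B cell transcript Cd79b reached 53.7 TPM in CBL0137 replicate 3. P-values measure the spread between these tumours.

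Before a cell copies its genome, the origin recognition complex, Cdc6 and Cdt1 load the Mcm2 to Mcm7 ring onto origins, and geminin (Gmnn) blocks further loading by binding Cdt1. Cdc45 and the GINS complex then turn the ring into a working helicase, primase and polymerase alpha lay down primers, and polymerases delta and epsilon extend them on the clamp Pcna. Ribonucleotide reductase, thymidylate synthase, dUTPase and thymidine kinase supply the deoxynucleotides. Many of these genes are known targets of E2F transcription factors, which the retinoblastoma protein family restrains until cells commit to S phase, and MYCN-driven neuroblastoma is known for high proliferation.

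The promoters of the members were searched for letters that E2F factors are known to bind. RefSeq windows of 250 bases before to 50 bases after the start (assembly GRCm38.p6) were at hand for 33 of the 41 members and for 11560 of the tested genes. TTTCCCGC, TTTGGCGC, TTTGCCGC or TTTCGCGC, on either strand, occurred in 14 of the 33 members (42.4%) and in 4.37% of the tested genes with a window. The CCAAT box (CCAAT) occurred in 60.6% of members and 42.3% of tested genes, the E-box CACGTG in 18.2% and 11.2%, and the cell cycle homology element (TTTGAA) in 15.2% and 14.4%. A match is a description of letters and does not show binding. Below are 5 windows, each 5′ to 3′ on the gene's own strand, with the E2F letters in capitals. Mcm5 came from a rule, and the other 4 were chosen after values were seen, each as the furthest lowered member of its functional group with a match. Gins3, Rfc3 and Lig1 were the only members of their groups with a match. Gins3 was the least lowered of the helicase activation genes in the combination. The windows show where in a promoter such letters lie. For Lig1, which has more than 1 start, the window shown is the one with a match. Its windows at chr7:13276925-13277224 and chr7:13279015-13279314 held 0 matches. In Mcm5 (chr8:75109259-75109558, plus strand) a pair of overlapping matches begins 153 bases upstream of the start. In Gins3 (chr8:95633309-95633608, plus strand) the match begins 41 bases upstream, in Rfc3 (chr5:151651159-151651458, minus strand) matches begin 10 bases upstream and 1 base downstream, in Pold1 (chr7:44548766-44549065, minus strand) the match begins 40 bases downstream, and in Lig1 (chr7:13278576-13278875, plus strand) 27 bases downstream.
Mcm5: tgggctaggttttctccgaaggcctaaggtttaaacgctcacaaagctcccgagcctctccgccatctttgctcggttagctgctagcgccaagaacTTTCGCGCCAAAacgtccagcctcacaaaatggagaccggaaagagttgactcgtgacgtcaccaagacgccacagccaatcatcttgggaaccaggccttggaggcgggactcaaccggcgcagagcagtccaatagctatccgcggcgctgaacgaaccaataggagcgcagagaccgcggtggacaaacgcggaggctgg
Gins3: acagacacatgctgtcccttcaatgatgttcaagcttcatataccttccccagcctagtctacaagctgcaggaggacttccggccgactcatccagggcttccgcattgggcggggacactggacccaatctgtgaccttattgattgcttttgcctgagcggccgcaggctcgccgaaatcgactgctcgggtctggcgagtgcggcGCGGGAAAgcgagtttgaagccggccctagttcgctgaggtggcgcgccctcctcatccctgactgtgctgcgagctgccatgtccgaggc
Rfc3: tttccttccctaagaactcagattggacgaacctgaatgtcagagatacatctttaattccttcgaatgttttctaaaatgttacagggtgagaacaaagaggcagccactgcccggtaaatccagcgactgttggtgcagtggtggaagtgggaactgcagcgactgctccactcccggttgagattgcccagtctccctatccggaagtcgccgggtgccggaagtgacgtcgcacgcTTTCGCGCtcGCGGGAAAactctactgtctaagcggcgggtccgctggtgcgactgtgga
Pold1: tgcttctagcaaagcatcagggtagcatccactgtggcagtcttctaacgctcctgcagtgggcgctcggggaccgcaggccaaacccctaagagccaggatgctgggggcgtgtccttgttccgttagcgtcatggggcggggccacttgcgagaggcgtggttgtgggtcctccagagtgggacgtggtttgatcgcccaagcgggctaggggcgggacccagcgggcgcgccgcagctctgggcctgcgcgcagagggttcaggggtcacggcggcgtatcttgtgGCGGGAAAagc
Lig1: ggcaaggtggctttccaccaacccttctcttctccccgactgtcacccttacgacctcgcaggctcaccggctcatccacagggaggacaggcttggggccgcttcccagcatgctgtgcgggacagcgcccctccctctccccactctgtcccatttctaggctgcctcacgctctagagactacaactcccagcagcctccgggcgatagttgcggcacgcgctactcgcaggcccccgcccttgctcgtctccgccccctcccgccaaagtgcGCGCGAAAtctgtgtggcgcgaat
The 14 members with these letters had a median log2 change of -1.27 in the combination against vehicle, and the 19 with a window but no match had -1.57. The ranges of these groups overlapped (-1.94 to -0.53 and -2.18 to -0.50), and no test was made.

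The 41 transcripts together took up 4386, 4066 and 4077 TPM in the vehicle tumours. They took up 3933, 3602 and 2900 TPM after CBL0137, 2425 and 2258 TPM after panobinostat, and 1721, 952 and 1871 TPM after the combination. The sums did not overlap between any pair of groups. The group means came to 83.3%, 56.1% and 36.3% of the vehicle mean, and the combination came to 43.0% without replicate 2. In 39 of the 41 genes the group means ran downward in the order vehicle, CBL0137, panobinostat, combination. The share of all tested genes in that order was not counted. In Cdt1 and Tk1 the panobinostat mean lay above the CBL0137 mean.

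**Figure D1:**
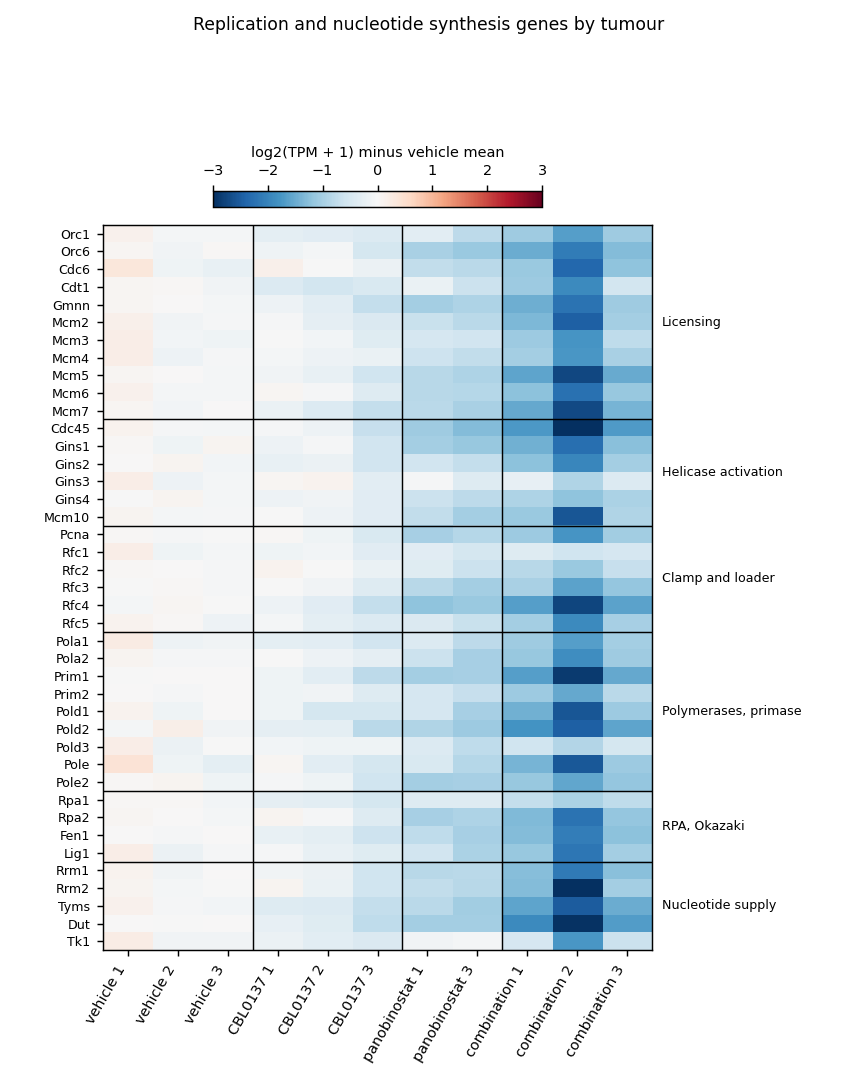
Each cell is log2(TPM + 1) of 1 gene (row, by functional group) in 1 tumour (column) minus the vehicle mean of that gene, with blue for lower and red for higher values and the colour scale ending at -3 and 3. The combination columns are the darkest, and replicate 2 of the combination is the lowest of its group in all 41 rows.

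Against vehicle, all 41 members fell after the combination, where 30.1% of all tested genes fell and 35.9% rose. The changes are differences of log2(TPM + 1) between group means, from limma, with Benjamini-Hochberg adjustment over all 15497 genes and a threshold of 0.05. The members' median was -1.53, from -2.18 to -0.50, beside a median of 0.08 over all tested genes, and adjusted p ran from 2.709e-05 to 0.0455. At least a 2-fold fall was reached by 35 members, and at least a 4-fold fall by 4, namely Cdc45, Dut, Rfc4 and Prim1. In every one of the 41 genes all 3 combination tumours lay below all 3 vehicle tumours, which held for 32.4% of tested genes. Without combination replicate 2, the adrenal cortex library, 40 of the 41 fell, where 28.8% of tested genes fell. The median was then -1.15, and the exception was Gins3. The lowest change was then -1.79, so 0 members reached a 4-fold fall, and 30 reached a 2-fold fall. The shares of all tested genes at these folds were not counted, here or after panobinostat.

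After panobinostat 27 of the 41 members fell, where 16.9% of tested genes fell and 25.5% rose. The median was -0.79, from -1.19 to -0.08, beside 0.10 over all tested genes, and 7 members fell at least 2-fold. Both panobinostat tumours lay below all vehicle tumours in 39 of the 41 genes, against 27.8% of tested genes, and the exceptions were Gins3 and Tk1. The count was 5 without panobinostat replicate 3, where the median was -0.73 and 8.55% of tested genes fell. It was 14 without vehicle replicate 1 and 16 without vehicle replicate 3, where 12.7% and 12.3% of tested genes fell. Orc6, Gins4, Pcna, Rfc3 and Pole2 passed in each of the 11 fits that left out 1 library.

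After CBL0137 0 of the 41 members fell in limma, where 1.13% of tested genes fell and 4.99% rose, and 1 member, Rpa1, was lower at an unadjusted p under 0.05, against 10.6% of tested genes lower and 13.9% higher at that level. All 41 estimates were below 0, as were those of 7962 of the 15497 tested genes. The members' median was -0.26, from -0.50 to -0.01, beside -0.01 over all tested genes. All CBL0137 tumours lay below all vehicle tumours in 19 of the 41 genes, against 19.1% of tested genes. CBL0137 replicate 3 was the lowest of its group in 39 genes, and without it the median was -0.13. Without combination replicate 2, Rpa1 (adjusted p = 0.0382) and Tyms (adjusted p = 0.0401) fell, where 2.74% of tested genes fell. No member rose in any comparison, at the adjusted threshold or at an unadjusted p under 0.05.

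**Figure D2:**
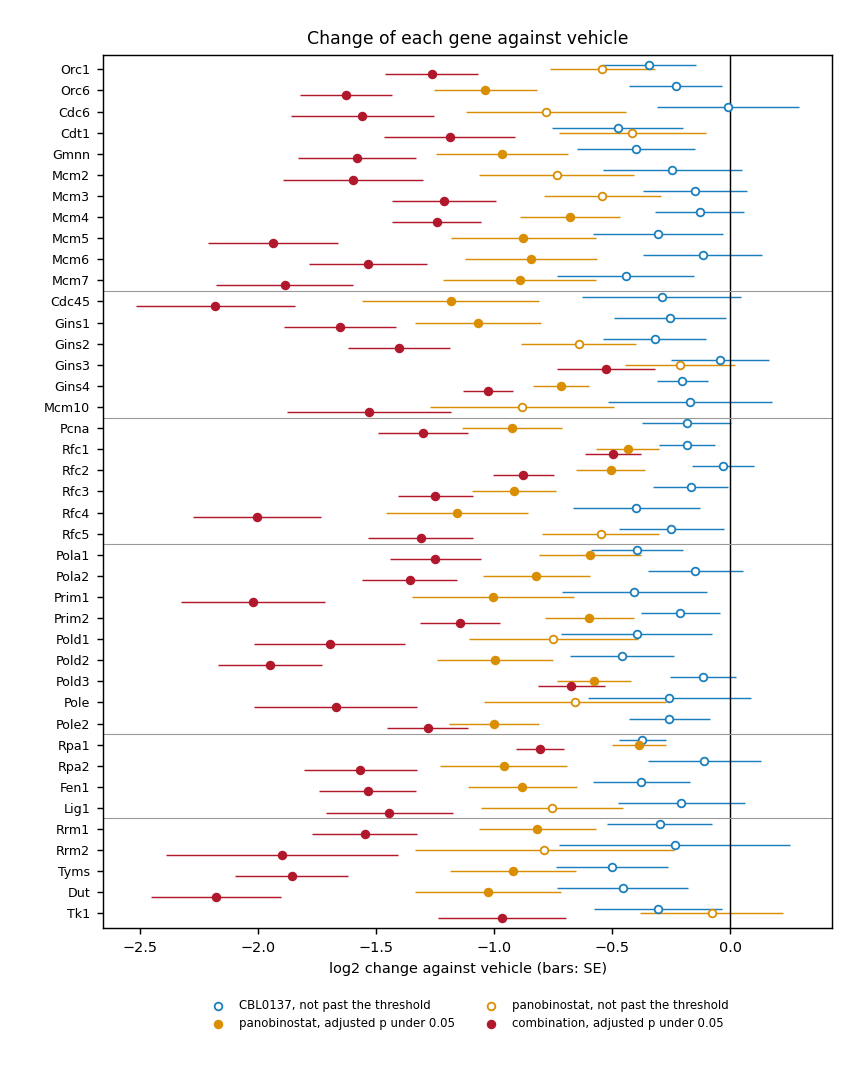
Points give the log2 change of each gene against vehicle for CBL0137 (blue), panobinostat (orange) and the combination (red), with bars for the SE from limma, and filled points have an adjusted p under 0.05. All red points are filled, 27 of the 41 orange points are filled and 0 of the blue points are.

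Among the licensing genes 11 of 11 fell after the combination (median -1.56), 6 of 11 after panobinostat and 0 of 11 after CBL0137. Mcm5, a subunit of the helicase ring on chromosome 8 (75109569 to 75128439), was at 147, 142 and 135 TPM in vehicle tumours. It was at 130.3, 121 and 93.5 TPM after CBL0137, at 79.2 and 73.7 TPM after panobinostat, and at 46.7, 20.5 and 49.0 TPM after the combination. No treated tumour reached the vehicle range, and the combination tumours were the lowest. The log2 change of Mcm5 was -1.94 ± 0.28 (SE) in the combination (adjusted p = 0.000162) and -0.88 ± 0.31 after panobinostat (adjusted p = 0.0425).

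The other ring subunits behaved alike in direction. Mcm7 averaged 304 ± 14.1 TPM in vehicle and 87.9 ± 37.1 TPM in the combination (SD, n = 3 each), Mcm6 194 ± 15.4 and 70.0 ± 25.8 TPM, and Mcm2 153 ± 14.1 and 53.9 ± 24.4 TPM. Mcm3 kept 44.2% and Mcm4 42.6% of the vehicle mean, more than the 27.4% of Mcm5 and 28.9% of Mcm7. Mcm7 was the most abundant of the 6 subunits in vehicle. The ratio of the highest to the lowest of them was 3.22, 3.77 and 3.66 in the vehicle tumours and 2.48, 2.21 and 2.62 in the combination. It was 3.18, 2.96 and 2.46 after CBL0137 and 3.14 and 3.01 after panobinostat. The subunits thus lay closer together in every treated tumour than in any vehicle tumour, and CBL0137 replicate 3 lay within the combination range. Mcm3 and Mcm2 did not pass the test after panobinostat (adjusted p = 0.102 and 0.0972).

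Cdt1, the loader of the ring, changed least among the licensing genes in the combination. It was at 56.5, 55.6 and 50.5 TPM in vehicle, 40.1, 36.6 and 39.0 TPM after CBL0137, 47.2 and 34.5 TPM after panobinostat, and 24.8, 13.6 and 36.6 TPM after the combination. The combination lay below vehicle in every tumour and overlapped the panobinostat range. It also lay below every CBL0137 tumour, but narrowly, with its highest value at 36.56 TPM and the lowest CBL0137 value at 36.65 TPM. The log2 change of Cdt1 was -1.19 ± 0.28 in the combination (adjusted p = 0.00348), and those after CBL0137 (-0.48 ± 0.28) and panobinostat (-0.42 ± 0.31) did not pass. Its inhibitor Gmnn went from 117 ± 4.34 TPM to 40.5 ± 15.7 TPM in the combination (-1.58 ± 0.25, adjusted p = 0.000311).

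The ratio of Cdt1 to Gmnn was 0.468, 0.474 and 0.450 in vehicle and 0.594, 0.560 and 0.659 in the combination. After panobinostat it was 0.825 and 0.563, and after CBL0137 0.385, 0.394 and 0.549. Thus all combination and panobinostat tumours lay above all vehicle tumours. An exact 2-sided permutation test gave p = 0.1 for the combination, the smallest that 3 against 3 allows, and an adjusted p of 0.48 over 12 ratio tests. These ratios were chosen after the values were seen.

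Cdc6, which recruits Cdt1 and the ring to origins, was at 21.5, 15.2 and 14.1 TPM in vehicle, then 18.5, 16.6 and 14.6 TPM after CBL0137. It was at 9.52 and 9.02 TPM after panobinostat and 7.18, 2.45 and 6.62 TPM after the combination. The CBL0137 tumours spread over the vehicle range, with a change of -0.01 ± 0.30, the nearest to 0 of all members. The change in the combination was -1.56 ± 0.30 (adjusted p = 0.00113). Of the origin recognition complex, Orc6 fell after panobinostat (-1.04 ± 0.22, adjusted p = 0.00453) and the combination (-1.63 ± 0.20, adjusted p = 5.82e-05), and Orc1, at 8.55 to 9.88 TPM in vehicle, fell in the combination (-1.26 ± 0.20, adjusted p = 0.000298).

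Among the helicase activation genes 6 of 6 fell after the combination (median -1.47), 3 of 6 after panobinostat and 0 of 6 after CBL0137. Cdc45, which binds the ring to activate it and lies on chromosome 16 (18780447 to 18811987), had the lowest estimate of all 41 members in the combination. It was at 94.6, 85.7 and 85.7 TPM in vehicle, 86.1, 79.9 and 54.6 TPM after CBL0137, 41.6 and 35.5 TPM after panobinostat, and 26.3, 9.28 and 26.5 TPM after the combination. CBL0137 replicate 1 reached the vehicle range, and each combination tumour lay below each panobinostat tumour. The log2 changes of Cdc45 were -2.18 ± 0.34 in the combination (adjusted p = 0.000267), -1.19 ± 0.38 after panobinostat (adjusted p = 0.0286) and -0.29 ± 0.34 after CBL0137 (adjusted p = 0.629).

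The 4 GINS subunits, which join Cdc45 on the ring, had estimates from -1.65 to -0.53 in the combination. Gins1 was at 75.1, 66.8 and 77.4 TPM in vehicle, then 65.5, 71.4 and 48.4 TPM after CBL0137. It was at 35.8 and 32.9 TPM after panobinostat and 26.1, 14.5 and 30.1 TPM after the combination, a change of -1.65 ± 0.24 (adjusted p = 0.000174). Gins3, on chromosome 8 (95633453 to 95645060), was the least abundant subunit at 11.7, 8.87 and 9.68 TPM in vehicle. It was at 10.6, 10.9 and 7.90 TPM after CBL0137, 9.76 and 7.43 TPM after panobinostat and 8.23, 4.89 and 7.24 TPM after the combination. Its ranges in vehicle, CBL0137 and panobinostat overlapped. Gins3 had the highest adjusted p in the combination (-0.53 ± 0.21, adjusted p = 0.0455), and it no longer passed without combination replicate 2 (adjusted p = 0.161). Gins4 kept 48.5% of its vehicle mean in the combination with little spread (-1.03 ± 0.11, adjusted p = 2.709e-05), Gins2 kept 37.9%, and Mcm10, which helps to activate the helicase, kept 37.6%.

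**Figure D3:**
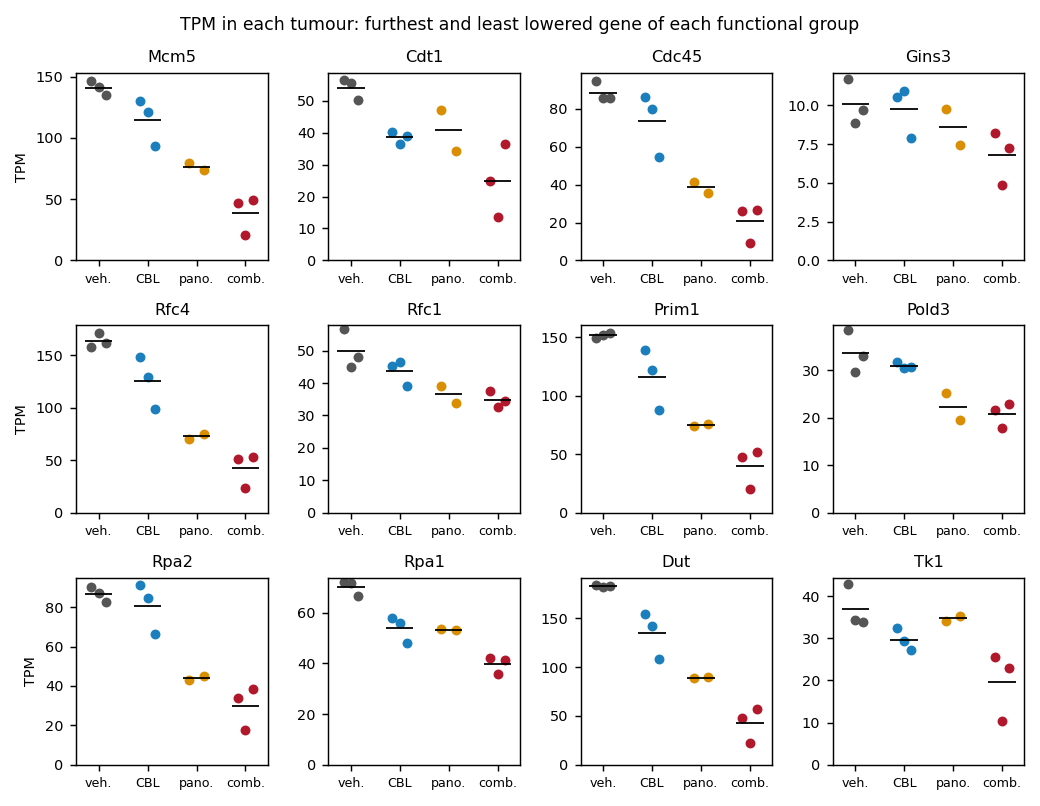
TPM of 12 genes in each tumour (points) with group means (lines), 2 genes for each of the 6 functional groups, namely the furthest and the least lowered in the combination, with axes starting at 0. Cdc45 and Dut show 4 descending steps, while the Rfc1 and Pold3 points of panobinostat and the combination lie at like heights.

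Among the clamp and loader genes 6 of 6 fell after the combination (median -1.28), 5 of 6 after panobinostat and 0 of 6 after CBL0137. Pcna, the clamp that holds polymerases on DNA, was the most abundant member at 548, 518 and 532 TPM in vehicle. It was at 544, 485 and 389.6 TPM after CBL0137, 269 and 292 TPM after panobinostat, and 251, 155 and 258 TPM after the combination. The combination lay just below panobinostat, and their difference did not pass the test (-0.38 ± 0.21, adjusted p = 0.237). The change of Pcna against vehicle was -0.92 ± 0.21 after panobinostat (adjusted p = 0.00671) and -1.30 ± 0.19 in the combination (adjusted p = 0.000187).

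The 5 subunits of replication factor C, the clamp loader, had estimates from -2.004 to -0.498 in the combination. Rfc4, on chromosome 16 (23113943 to 23127737), was at 158, 171 and 161 TPM in vehicle, then 148, 129 and 99.2 TPM after CBL0137. It was at 70.52 and 74.95 TPM after panobinostat and 51.5, 23.4 and 52.8 TPM after the combination (-2.004 ± 0.269, adjusted p = 0.000114). All groups were apart, in descending order. Rfc1, the large subunit, on chromosome 5 (65261850 to 65335670), was at 56.6, 44.9 and 47.9 TPM in vehicle, 45.3, 46.5 and 39.1 TPM after CBL0137, 39.1 and 33.9 TPM after panobinostat, and 37.6, 32.6 and 34.4 TPM after the combination. The panobinostat and combination ranges overlapped, with a difference of -0.06 ± 0.13 (adjusted p = 0.759). Against vehicle Rfc1 fell by 0.43 after panobinostat and by 0.50 in the combination (SE 0.13 and 0.12, adjusted p = 0.0250 and 0.00404), the smallest fall of any member in the combination.

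Rfc2 was at 107, 106 and 103 TPM in vehicle, 114, 105 and 91.5 TPM after CBL0137, 81.9 and 66.8 TPM after panobinostat, and 58.7, 48.3 and 65.3 TPM after the combination. The CBL0137 tumours lay around the vehicle range (-0.03 ± 0.13), and the combination tumours lay below the panobinostat ones. Rfc2 fell by 0.51 after panobinostat and by 0.88 in the combination (SE 0.15 and 0.13, adjusted p = 0.0187 and 0.000208). Rfc3 kept 42.3% and Rfc5 41.2% of the vehicle mean in the combination.

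Among the polymerase and primase genes 9 of 9 fell after the combination (median -1.36), 7 of 9 after panobinostat and 0 of 9 after CBL0137. Prim1, the catalytic primase subunit on chromosome 10 (128015168 to 128030037), was at 149, 152 and 153 TPM in vehicle. It was at 139, 122 and 87.7 TPM after CBL0137, 74.3 and 75.7 TPM after panobinostat, and 47.2, 19.8 and 52.1 TPM after the combination. The groups were apart. Its change was -2.02 ± 0.31 in the combination (adjusted p = 0.000241), against -1.15 ± 0.17 for its partner subunit Prim2 (adjusted p = 0.000204), which started from 39.9 ± 0.71 TPM.

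Pold2, an accessory subunit of polymerase delta, was at 99.4, 118 and 96.4 TPM in vehicle, 85.8, 85.3 and 58.8 TPM after CBL0137, 54.9 and 48.7 TPM after panobinostat, and 29.1, 18.3 and 34.0 TPM after the combination. The groups did not overlap, and Pold2 fell in the combination against vehicle (-1.95 ± 0.22, adjusted p = 4.169e-05) and against panobinostat (-0.95 ± 0.25, adjusted p = 0.0408). Pold3, another subunit of the same enzyme on chromosome 7 (100082111 to 100121565), was at 38.4, 29.7 and 33.0 TPM in vehicle, 31.7, 30.4 and 30.6 TPM after CBL0137, 25.2 and 19.4 TPM after panobinostat, and 21.7, 17.8 and 22.8 TPM after the combination. The panobinostat and combination ranges of Pold3 overlapped. Pold3 fell by 0.58 after panobinostat and by 0.67 in the combination (SE 0.16 and 0.14, adjusted p = 0.0146 and 0.00178). The catalytic subunit Pold1, whose promoter is shown above, went from 55.0 ± 4.47 to 17.8 ± 8.51 TPM in the combination (-1.70 ± 0.32, adjusted p = 0.000944).

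For polymerase epsilon, the catalytic Pole kept 31.7% of its vehicle mean in the combination and its partner Pole2 38.8%. Pole was among the least even in vehicle, at 50.2, 34.5 and 30.7 TPM, and did not pass after panobinostat (-0.66 ± 0.38, adjusted p = 0.194). Pole2 passed there (-1.001 ± 0.192, adjusted p = 0.00299), with 10.7 and 10.9 TPM after panobinostat against 20.8 to 24.0 TPM in vehicle. The polymerase alpha subunits Pola1 and Pola2 kept 41.4% and 38.7% in the combination.

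Among the single-strand binding and Okazaki fragment genes 4 of 4 fell after the combination (median -1.49), 3 of 4 after panobinostat and 0 of 4 after CBL0137. Rpa2, a subunit of replication protein A on chromosome 4 (132768332 to 132778752), was at 90.1, 87.3 and 82.5 TPM in vehicle, 91.3, 84.8 and 66.4 TPM after CBL0137, 43.0 and 45.1 TPM after panobinostat, and 33.9, 17.8 and 38.5 TPM after the combination. The CBL0137 tumours overlapped vehicle, while the panobinostat and combination tumours did not. The change of Rpa2 was -1.57 ± 0.24 in the combination (adjusted p = 0.000253) and -0.96 ± 0.27 after panobinostat (adjusted p = 0.0166).

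Rpa1, the largest subunit of the same complex, on chromosome 11 (75298166 to 75348324), was at 72.0, 71.8 and 66.5 TPM in vehicle. It was at 58.0, 56.0 and 48.1 TPM after CBL0137, 53.6 and 53.0 TPM after panobinostat, and 42.3, 35.7 and 41.1 TPM after the combination. CBL0137 and panobinostat tumours overlapped, below vehicle and above the combination. Rpa1 had the lowest adjusted p of the members for CBL0137 (-0.37 ± 0.10, adjusted p = 0.0584). It fell in the combination against vehicle (-0.81 ± 0.10, adjusted p = 7.557e-05) and against panobinostat (-0.42 ± 0.11, adjusted p = 0.0445). The flap nuclease Fen1 and the ligase Lig1, which finish Okazaki fragments, kept 35.0% and 37.8% of the vehicle mean in the combination, and Lig1 did not pass after panobinostat (adjusted p = 0.0663).

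Among the nucleotide supply genes 5 of 5 fell after the combination (median -1.86), 3 of 5 after panobinostat and 0 of 5 after CBL0137. Dut, which removes dUTP and makes the precursor of dTTP, lies on chromosome 2 (125247190 to 125258608) and was at 184, 182 and 183 TPM in vehicle. It was at 154, 142 and 108 TPM after CBL0137, 89.2 and 89.3 TPM after panobinostat, and 48.3, 22.7 and 56.6 TPM after the combination. The groups descended without overlap. Dut fell in the combination against vehicle (-2.18 ± 0.28, adjusted p = 8.107e-05) and against panobinostat (-1.15 ± 0.31, adjusted p = 0.0442).

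Tyms, thymidylate synthase, had the lowest estimate of the members after CBL0137 (-0.50 ± 0.24, adjusted p = 0.230). It was at 51.0, 45.4 and 44.1 TPM in vehicle, 35.5, 35.1 and 28.1 TPM after CBL0137, 26.3 and 22.4 TPM after panobinostat, and 14.9, 7.40 and 16.1 TPM after the combination. The groups did not overlap, and the change in the combination was -1.86 ± 0.24 (adjusted p = 8.711e-05). Tk1, the thymidine salvage kinase on chromosome 11 (117815526 to 117826092), was at 42.8, 34.2 and 33.9 TPM in vehicle, 32.3, 29.3 and 27.1 TPM after CBL0137, 34.1 and 35.3 TPM after panobinostat, and 25.5, 10.3 and 23.1 TPM after the combination. The panobinostat tumours sat within the vehicle range (-0.08 ± 0.30, adjusted p = 0.854), and the combination tumours lay below all others. Tk1 fell in the combination (-0.97 ± 0.27, adjusted p = 0.00957).

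The ratio of Tk1 to Tyms, the salvage against the synthesis route to dTMP, was 0.839, 0.754 and 0.767 in vehicle. It was 0.912, 0.834 and 0.964 after CBL0137, 1.30 and 1.58 after panobinostat, and 1.71, 1.39 and 1.43 after the combination. The panobinostat and combination tumours lay above all vehicle and CBL0137 tumours. The exact permutation test gave p = 0.1 for the combination and 0.2 for panobinostat, the smallest that 3 against 3 and 2 against 3 allow, with adjusted p of 0.48 for both.

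Rrm1 and Rrm2 encode the large and small subunits of ribonucleotide reductase. Rrm1 averaged 172 ± 12.1 TPM in vehicle and 60.3 ± 18.9 TPM in the combination (-1.55 ± 0.22, adjusted p = 0.000164). Rrm2 stood at 211, 189 and 195 TPM in vehicle tumours and at 79.8, 18.3 and 96.8 TPM in the combination (-1.90 ± 0.49, adjusted p = 0.00612), the largest SE of any member. The low value was that of combination replicate 2, where the ratio of Rrm2 to Rrm1 was 0.474 against 1.13 to 1.35 in the other combination tumours and 1.13 to 1.18 in vehicle. After panobinostat Rrm1 fell (-0.82 ± 0.25, adjusted p = 0.0234), and Rrm2 did not pass (-0.79 ± 0.55, adjusted p = 0.271).

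The combination was next compared with each drug alone. Against CBL0137 39 of the 41 members fell (median -1.21, beside 0.12 over all tested genes), where 23.7% of tested genes fell and 33.2% rose. The exceptions were Gins3 (adjusted p = 0.0705) and Tk1 (adjusted p = 0.0596). In 40 of the 41 genes all combination tumours lay below all CBL0137 tumours, which held for 28.6% of tested genes. Without combination replicate 2, 37 members fell, with a median of -0.89, where 21.9% of tested genes fell. Against panobinostat 3 of the 41 fell, namely Dut, Pold2 and Rpa1, where 4.3% of tested genes fell and 6.24% rose. All 41 estimates were below 0 (median -0.69, beside -0.02), as were those of 7929 of the 15497 tested genes. Of the members 31 had an unadjusted p under 0.05, against 16.4% of tested genes lower at that level. In 35 genes all combination tumours lay below both panobinostat tumours, which held for 21.5% of tested genes. The count of 3 fallen members was 27 without combination replicate 3, where 11.6% of tested genes fell. It was 2 without combination replicate 2 (median -0.38, 0.9% of tested genes) and 5 without CBL0137 replicate 3 (6.02% of tested genes). It was 0 without vehicle replicate 1, 2 or 3, CBL0137 replicate 1 or 2, or combination replicate 1, where 0.815% to 2.25% fell. Without panobinostat replicate 3 the members' median was -0.80.

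Panobinostat alone was below CBL0137 alone in 6 of the 41 members by the test, namely Orc6, Gins4, Pcna, Rfc2, Rfc3 and Pole2, where 6.81% of tested genes were lower and 12.1% higher. The median was -0.52, beside 0.11, and in 32 genes both panobinostat tumours lay below all CBL0137 tumours, against 22.2% of tested genes. The count of 6 lower members was 26 without combination replicate 2, where 9.42% of tested genes were lower. It was 0 without CBL0137 replicate 1 or 2, where 1.36% and 1.79% of tested genes were lower, and 3 without vehicle replicate 3 (4.48%). Leaving out 1 panobinostat library leaves 1 in that group, and without panobinostat replicate 3 the members' median was -0.44. The interaction, that is the combined-treatment change less the summed single-drug changes, passed in 0 of the 41 members by limma, with 0 at an unadjusted p under 0.05, where 5.25% of tested genes were below 0 and 5.28% above at that level. It passed in 0% of tested genes in the downward direction and 0% in the upward direction. The estimate was below 0 in 39 of the 41 members and in 8018 of the 15497 tested genes. The members' median was -0.44, beside -0.02 over all tested genes (median SE of the members 0.33), and it was -0.14 without combination replicate 2.

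Other genes of the same processes were counted in lists chosen by function, with earlier results of these data known. Of all tested genes 30.1% fell and 35.9% rose in the combination, 16.9% and 25.5% after panobinostat, and 1.13% and 4.99% after CBL0137. Of 32 other replication factors 28 fell and 1 rose in the combination, 20 fell and 1 rose after panobinostat, and 1 fell after CBL0137. That gene was Orc2, of the origin recognition complex, at 65.4 ± 0.97 TPM in vehicle and 46.8 ± 4.69 TPM after CBL0137 (-0.48 ± 0.12, adjusted p = 0.0454). Rpa3, the third subunit of replication protein A, went from 188 ± 8.29 to 56.4 ± 14.1 TPM in the combination (-1.75 ± 0.17, adjusted p = 2.15e-05). The riser was Pold4, the small subunit of polymerase delta, at 7.59, 6.82 and 4.65 TPM in vehicle, 25.8 and 33.8 TPM after panobinostat, and 47.0, 78.8 and 48.3 TPM after the combination (2.99 ± 0.33, adjusted p = 3.60e-05). After CBL0137 Pold4 stood at 9.25, 11.4 and 23.7 TPM and did not pass (adjusted p = 0.0952). Every treated tumour was above every vehicle tumour for Pold4, while Pold1, Pold2 and Pold3 fell in the combination.

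Of 35 other genes of nucleotide metabolism 26 fell and 4 rose in the combination, and 23 fell and 0 rose after panobinostat. After CBL0137 0 of them changed in limma, and 14 were lower and 2 higher at an unadjusted p under 0.05. Samhd1, which breaks down dNTPs, stood at 16.4, 13.1 and 13.3 TPM in vehicle tumours and 222, 157 and 106 TPM in the combination (3.36 ± 0.38, adjusted p = 4.07e-05). It was at 24.8 and 24.5 TPM after panobinostat and 27.0, 27.1 and 76.3 TPM after CBL0137, neither past the threshold (adjusted p = 0.174 and 0.0604). Dck, the deoxycytidine salvage kinase, was at 66.3, 54.0 and 59.2 TPM in vehicle, 37.3 and 35.0 TPM after panobinostat and 100.3, 82.1 and 64.4 TPM after the combination. Dck was lower than vehicle after panobinostat (-0.71 ± 0.17, adjusted p = 0.00722) and higher than panobinostat in the combination (1.14 ± 0.17, adjusted p = 0.00486). Rrm2b, the alternative small reductase subunit that p53 is known to induce, did not pass in the combination (0.41 ± 0.17, adjusted p = 0.0509).

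Among 22 genes of the E2F, retinoblastoma and G1 to S control group, 14 fell and 4 rose in the combination, 5 fell and 3 rose after panobinostat, and 1 rose after CBL0137. The latter was Cdkn1a, which encodes the cyclin-dependent kinase inhibitor p21 and was at 6.47, 4.56 and 3.86 TPM in vehicle. It was at 15.8, 15.9 and 47.5 TPM after CBL0137, 23.5 and 23.5 TPM after panobinostat and 48.8, 55.7 and 63.5 TPM in the combination. All treated tumours were above all vehicle tumours, with log2 changes of 2.03 ± 0.36 (adjusted p = 0.0107), 2.06 ± 0.40 (adjusted p = 0.00322) and 3.27 ± 0.36 (adjusted p = 3.57e-05). Cdkn1b, a related inhibitor, fell by 0.84 after panobinostat and by 1.06 in the combination (adjusted p = 0.00137 and 4.33e-05). E2f1 stood at 26.8, 19.3 and 22.2 TPM in vehicle tumours and 13.8, 6.98 and 21.2 TPM in the combination and did not pass there (-0.77 ± 0.31, adjusted p = 0.0506). The E2F partner Tfdp1 and E2f6 fell in the combination (-1.48 ± 0.19 and -1.12 ± 0.13, adjusted p = 7.58e-05 and 3.97e-05).

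Of 12 genes that assemble or maintain chromatin behind the fork, 12 fell in the combination, 5 after panobinostat and 0 after CBL0137, where 3 had an unadjusted p under 0.05. The FACT subunits Ssrp1 and Supt16 fell in the combination by 1.14 ± 0.14 and 1.12 ± 0.15 (SE, adjusted p = 5.99e-05 and 9.66e-05). The histone chaperone Nasp stood at 395, 329.8 and 361 TPM in vehicle tumours and 92.9, 43.5 and 106 TPM in the combination (-2.24 ± 0.29, adjusted p = 9.43e-05). Of 25 mitotic genes 25 fell in the combination (median -2.13), 15 after panobinostat (median -0.99) and 0 after CBL0137 (median -0.64, 9 at an unadjusted p under 0.05). Mki67, a mark of cycling cells, stood at 408, 281 and 325 TPM in vehicle tumours and 112, 38.5 and 106 TPM in the combination (-2.10 ± 0.36, adjusted p = 0.000535). In the combination against panobinostat 12 of the 25 mitotic genes and 3 of the 41 members fell, and the difference between the lists was not tested.

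Marker lists of other cell types moved with the same treatments. All 14 macrophage and monocyte markers rose after panobinostat and the combination and 10 after CBL0137, and their summed level was 849.7 to 1042 TPM in vehicle, 1841 to 3706 TPM after CBL0137, 4535 to 5730 TPM after panobinostat and 7441 to 10900 TPM in the combination. The 11 fibroblast and pericyte markers, all of which rose after panobinostat and the combination and 3 after CBL0137, summed to 278 to 468, 658 to 1554, 3163 to 3682 and 4200 to 5625 TPM in the same order. The 8 endothelial markers, of which 3, 8 and 8 rose, summed to 46.0 to 71.5, 98.3 to 227, 235 to 262 and 432 to 807 TPM. Of these markers only Ly6c2 was at 0 anywhere, in 1 library. In these 3 lists the order of the groups was the reverse of that of the members, and the means of the neutrophil and adipocyte lists ran in the same reverse order. The T and NK cell, B cell and Schwann cell lists did not follow it. Their summed levels averaged 4.91, 2.36 and 9.35 TPM in vehicle, 32.7, 64.6 and 12.6 TPM after CBL0137, 19.4, 11.9 and 58.1 TPM after panobinostat, and 65.1, 37.4 and 44.5 TPM in the combination. The part of these cells' transcripts in the members' result was not tested.

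The 13 sympathoadrenal markers, which mark the tumour cells, summed to 1296 to 1456 TPM in vehicle, 1819 to 2268 TPM after CBL0137, 1108 to 1306 TPM after panobinostat and 801.3 to 1738 TPM in the combination. The highest of the combination sums was that of replicate 2, the adrenal cortex library, and the combination mean was 92.3% of the vehicle mean with it and 76.2% without it. With 0 of them falling after CBL0137, 1 after panobinostat and 6 in the combination, while 2, 0 and 3 rose, they did not share the members' order. When each library was scaled to these 13 markers, a choice made after the data were seen, 37 of the 41 members fell in the combination (median -1.29), where 16.5% of tested genes fell. After panobinostat 6 fell (median -0.72), where 4.15% of tested genes fell, and after CBL0137 14 (median -0.71), where 27.7% did. This scaling used all libraries, combination replicate 2 included. That scaling placed the median of all tested genes at 0.32, 0.17 and -0.46 in the same order.

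**Figure D4:**
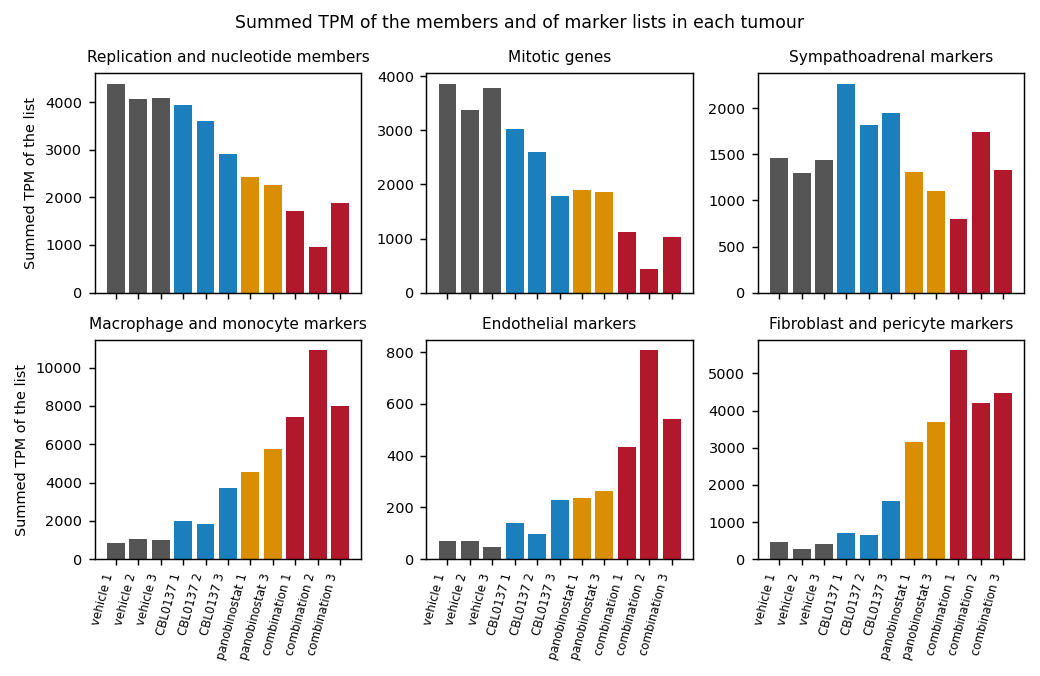
Bars give the summed TPM of the 41 members and of 5 other gene lists in each of the 11 tumours, grouped by treatment, on axes that start at 0 and differ between panels. Member and mitotic sums descend from vehicle to the combination, macrophage, endothelial and fibroblast sums ascend, and sympathoadrenal sums do neither.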

How the data were processed

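Total RNA of whole tumours was sequenced after ribosomal RNA depletion with a stranded kit, 1 library per tumour, per the labels' protocols. The authors deposited TPM values for 24411 genes, made with STAR, SAMtools and RSEM on mm10 per the submitters' processing notes. Versions and annotation release are not given in the sources used here. TPM hold no counts, so depth and counting error are unknown, and 0 columns were left unused.

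Groups came from the labelled treatment. Values were taken as log2(TPM + 1), a gene was tested if 2 or more libraries had 1 TPM or more (15497 tested, 8914 left out), and limma 3.58.1 in R 4.3.3 fitted 4 group means over 11 libraries with a variance trend (7 residual degrees of freedom). Contrasts were 2-sided, with Benjamini-Hochberg adjustment over all tested genes and a threshold of 0.05. The log2(TPM + 1) scale understates changes of low genes. The script was first tested on simulated data. With 3 libraries against 3 an exact permutation test cannot go below 0.1.

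The members and lists were chosen with earlier results of these data known. Values for each library are given for 17 members, namely the lowest and highest change of each functional group in the combination and the 3 lowest and 3 highest in each comparison against vehicle. Pcna, Rrm2, Pole, Gmnn and other members were added after their values were seen. Outside the members the rule took up to 4 genes per list and comparison by adjusted p, plus E2f1, Cdkn1a, Mki67, Top2a, Ssrp1, Supt16, Rrm2b and Samhd1. Some genes that the rule takes are left out of the text. And1 was not matched in the table. Gene coordinates are GENCODE M21 on GRCm38 and promoters are RefSeq on GRCm38.p6.

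Alternatives, 23 in all, were other pseudocounts, filters and scalings, a replicate block, no variance trend, only the groups compared, and each library left out. Of these, 2 (leaving out combination replicate 2 and panobinostat replicate 3 together and scaling to 13 sympathoadrenal markers) were chosen after seeing the data. Python 3.11.15 with pandas 2.3.3, numpy 2.4.6, scipy 1.17.1 and matplotlib 3.10.9 made the tables, exact tests and figures.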

Additional observations from a re-analysis of the deposited data

How the results depend on the processing

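The fall of the members in the combination against vehicle kept its direction in all 23 alternatives run, with 37 to 41 of the 41 past the threshold, and 37 members passed in each of them. For the combination against CBL0137 only scaling to sympathoadrenal markers moved the count of 39 by over 1.5 times, to 10, and 36 to 40 passed when 1 library was left out. For panobinostat against vehicle the count of 27 became 17 with quantile normalization and 6 with sympathoadrenal scaling, and ran from 5 to 37 over the fits without 1 library. For CBL0137 against vehicle the count of 0 became 1 with only the groups compared, where 1.45% of tested genes fell. It became 14 with sympathoadrenal scaling (27.7% of tested genes), and ran from 0 to 2 without 1 library. For the combination against panobinostat the count of 3 became 5 with a pseudocount of 5, where 4.88% of tested genes fell. It became 1 without a filter (2.14% of tested genes) and 5 with a filter of 5 TPM (6.55%). It became 16 with quantile normalization and 6 when rescaled without small structural RNA and histone genes. It was 0 with only the groups compared (0.136% of tested genes), without a variance trend (2.97%) and with sympathoadrenal scaling. It ran from 0 to 27 without 1 library. For panobinostat against CBL0137 the count of 6 became 10 with TMM factors and 3 when rescaled, where 10.1% and 5.07% of tested genes were lower. It was 0 with only the groups compared (0% of tested genes) and with sympathoadrenal scaling (0.536%), and ran from 0 to 26 without 1 library. The members' median there turned from -0.52 to 0.0067 with sympathoadrenal scaling, and that of the interaction from -0.44 to 0.18. Counts of risen members and of the interaction stayed at 0 in all alternatives run. The causes were not tested.

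Same-numbered libraries did not deviate together (15 pairs with correlations of -0.26 to 0.19, of which 2 exceeded 0.1), and 1 of 11 libraries correlated best with its own number. With a replicate block 41 members fell in the combination and 31 after panobinostat against vehicle, where 28.9% and 15% of tested genes fell. After CBL0137 0 members fell, where 0.245% of tested genes did. In the combination 39 members fell against CBL0137 and 0 against panobinostat, where 22.4% and 0.31% of tested genes fell. Panobinostat was below CBL0137 in 1 member, where 2.67% of tested genes were lower. The interaction passed in 0 members and in 0% of tested genes.

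Scaling moved all genes too. The median change of all tested genes in the combination against vehicle was 0.08, and -0.26 with quantile normalization, where 43.1% fell and 26.9% rose in place of 30.1% and 35.9%. With sympathoadrenal scaling 16.5% fell and 38.4% rose there, 4.15% and 21.3% after panobinostat, and 27.7% and 3.28% after CBL0137. After panobinostat 25.6% fell and 15.8% rose with quantile normalization. For the combination against CBL0137 the split was 34.6% and 25.1% with quantile normalization and 2.97% and 59.9% with sympathoadrenal scaling. Against panobinostat it was 11.8% and 9.69%, 8.26% and 4.32% when rescaled, and 0.297% and 3.85%. For panobinostat against CBL0137 it was 8.64% and 7.58%, 10.1% and 11.2% with TMM factors, and 0.536% and 39.2%. Depth is unknown, so what limits low genes such as Gins3 and Orc1 cannot be stated. With 2 panobinostat libraries, a fit without 1 of them assumes that the other varies like the other groups.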
